A study of Mus musculus with 4 samples.

Results

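Neutrophils of mouse pancreatic tumors were picked out of whole-tumor single-cell libraries by their own transcripts. A barcode was a member when it came from an all live library, had at least 500 detected genes and at most 10% mitochondrial UMIs (unique molecular identifiers, each counting 1 captured RNA molecule), held at least 100 UMIs of S100a8 and S100a9 per 10000, and had at least 2 of the 5 genes Csf3r, Cxcr2, Retnlg, G0s2 and Il1r2. The rule found 430 members, 50 in tumor 1 and 380 in tumor 2. The all live libraries held 5360 barcodes within the gene and mitochondrial limits, and 8282 barcodes were deposited over all 4 libraries. Because expression chose the members, the levels of these 7 genes describe the class and are not findings. The cells were further split by whether a UMI of Siglecf, which encodes a sialic acid-binding receptor, was seen.

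Both tumors came from KPC mice on the C57BL/6J background, and carried Trp53LSL-R172H/+ and Pdx1-Cre. In this model a pancreatic promoter drives the Cre recombinase, so the mutant Trp53 allele is switched on in the epithelium of the pancreas and not, by design, in blood cells. Each tumor gave 2 libraries: all live cells, sorted only for exclusion of the dye DAPI, and DAPI-CD45-CD31-EpCAM-PDPN+ cells, a gate for cancer-associated fibroblasts (CAFs) that should leave leukocytes out. There was no tumor-free group, neither age nor sex was used here, and each tumor counted as 1 sample.

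Neutrophils are short-lived phagocytes that are made in the bone marrow. Their granule proteins are made in order: primary granule proteases such as elastase in the earliest precursors, then secondary granule proteins such as lactoferrin and cathelicidin in myelocytes, and gelatinase in the last marrow stages. Transcripts of the granule proteins are therefore largely lost by the time a cell circulates, while receptors for chemokines mark mature cells. G-CSF is the growth factor of the lineage. In tumors, neutrophils are known as sources of interleukin-1 and of chemokines, and in mice some carry Siglec-F, a receptor better known on eosinophils.

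The all live libraries held 1948 and 3583 barcodes and 30950993 and 14972652 UMIs, and 1933 and 3427 barcodes passed the filter. Their barcodes began at different depths: the lowest had 4972 UMIs in tumor 1 and 1620 in tumor 2. Neutrophils had a median of 6367.5 UMIs in tumor 1 and 2287 in tumor 2, and a median of 1872 and 1000 detected genes. The libraries shared only 4 to 6 barcode sequences a pair, and no member was shared.

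Neutrophils made up 2.59% of kept barcodes in tumor 1 (50 of 1933, 95% Clopper-Pearson interval 1.93 to 3.40) and 11.1% in tumor 2 (380 of 3427, 10.1 to 12.2). These intervals, like all below, cover counting error only, and with 1 library per tumor the shares were not tested. Among tumor 2 barcodes of at least 4972 UMIs the share was 5.45% (50 of 917, 4.07 to 7.13), and below that depth it was 13.1% (330 of 2510). The sorted CAF library of tumor 1 held 0 barcodes that met the rule among 1402, which allows a share of up to 0.214%. That of tumor 2 held 7 among 1222 (0.573%, 0.231 to 1.18).

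As a description of what the rule selected, S100a8, a subunit of the antimicrobial protein calprotectin, stood at 932 UMIs per 10000 in the neutrophils of tumor 1 and 466 in those of tumor 2, against 3.64 and 3.07 in macrophages and 14.4 and 4.94 in monocytes. The label was checked against genes of other cell types, which the rule did not use. Of 8 eosinophil genes, Epx, Prg2, Prg3, Ear1 and Il5ra had no UMI in any member, Ear2 had 44 UMIs in 11 cells of tumor 1 and 88 in 13 cells of tumor 2, Ear6 had 2 UMIs in tumor 1 and Ccr3 1 in tumor 2. The 5 mast cell and basophil genes had 4 UMIs in tumor 1, all of Mcpt8, and 0 in tumor 2. All 8 macrophage markers had UMIs in the neutrophils of each tumor, summing to 58.6 per 10000 in tumor 1 and 43.2 in tumor 2, and no marker was at 0. The 5 monocyte markers summed to 16.7 and 13.8 per 10000, and the 6 dendritic markers to 1.06 and 16.1. Epithelial transcripts were seen too, as 6 of 50 members of tumor 1 and 5 of 380 of tumor 2 had 20 or more Krt8 and Krt18 UMIs per 10000. The threshold of the rule fell within a continuous range: between 50 and 100 S100a8 and S100a9 UMIs per 10000, 11 barcodes of tumor 1 and 74 of tumor 2 had at least 2 of the 5 genes, against 17 and 59 between 100 and 200.

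The 2 tumors held neutrophils of different make-up. In tumor 1, 29 of 50 cells (58.0%, 43.2 to 71.8) had both Ngp and Camp at 10 or more UMIs per 10000, a limit chosen after the levels were seen, and in tumor 2 only 11 of 380 did (2.89%, 1.45 to 5.12). Ngp encodes neutrophilic granule protein and Camp the cathelicidin antimicrobial peptide, both of secondary granules. Among the 50 tumor 2 neutrophils of at least 4972 UMIs, 3 reached that limit (6.00%, 1.25 to 16.5). Siglecf went the other way, with a UMI in 1 of 50 neutrophils of tumor 1 (2.00%, 0.0506 to 10.6) and in 187 of 380 of tumor 2 (49.2%, 44.1 to 54.4).

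**Figure D1:**
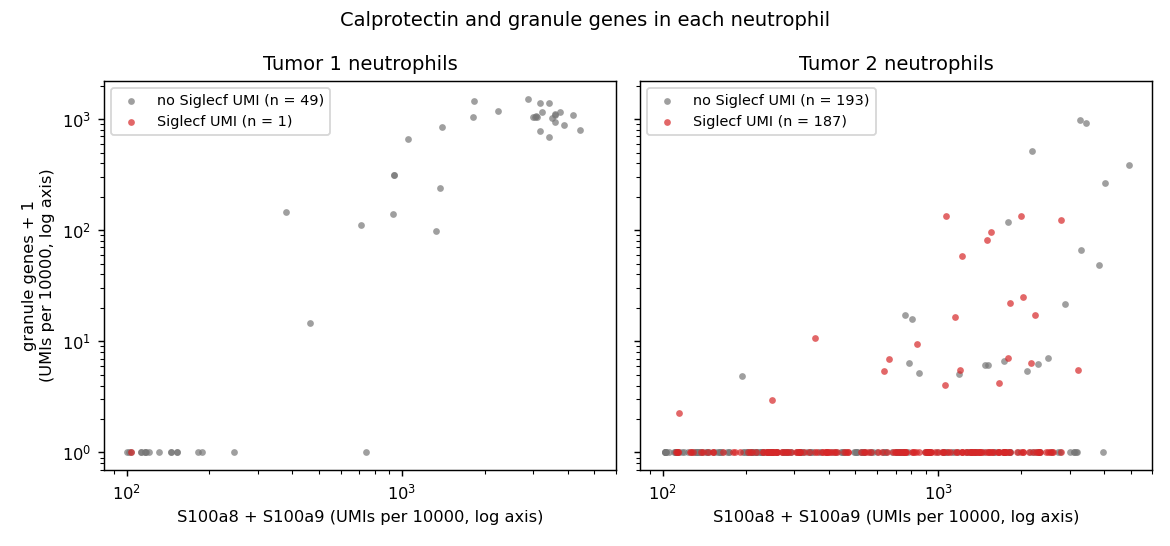
Each point is 1 neutrophil of tumor 1 (left) or tumor 2 (right). The horizontal axis gives S100a8 and S100a9 together and the vertical axis Ngp, Camp and Ltf together plus 1, both in UMIs per 10000 on log axes, and cells with a Siglecf UMI are red. In tumor 1 a group of cells stands high on both axes and 1 cell is red, while most tumor 2 cells lie along the bottom and 187 are red.

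The promoter stretches of 4 secondary granule genes are shown because these genes stood together at high levels in the same cells of tumor 1. Each runs 5′ to 3′ on the strand of the gene and ends at the base before the annotated start (RefSeq, build GRCm38.p6). Capitals mark matches to TTGCNNAA on either strand (TTNNGCAA on the other), a pattern of the kind bound by C/EBP factors, which act in granulocyte development. Ngp lies at chr9:110419558-110419807 (plus strand), Camp at chr9:109849457-109849706 (minus), Ltf at chr9:111019042-111019291 (plus) and Lcn2 at chr2:32387740-32387989 (minus).
Ngp: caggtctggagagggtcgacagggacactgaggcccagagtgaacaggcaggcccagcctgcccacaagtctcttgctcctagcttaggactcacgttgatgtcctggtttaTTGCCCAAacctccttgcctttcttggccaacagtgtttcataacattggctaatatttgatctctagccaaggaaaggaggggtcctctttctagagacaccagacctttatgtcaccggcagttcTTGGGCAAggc
Camp: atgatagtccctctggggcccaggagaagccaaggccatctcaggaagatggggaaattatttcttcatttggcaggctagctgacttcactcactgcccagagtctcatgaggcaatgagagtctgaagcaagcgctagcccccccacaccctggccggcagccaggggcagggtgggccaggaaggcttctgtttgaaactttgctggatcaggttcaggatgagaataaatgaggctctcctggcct
Ltf: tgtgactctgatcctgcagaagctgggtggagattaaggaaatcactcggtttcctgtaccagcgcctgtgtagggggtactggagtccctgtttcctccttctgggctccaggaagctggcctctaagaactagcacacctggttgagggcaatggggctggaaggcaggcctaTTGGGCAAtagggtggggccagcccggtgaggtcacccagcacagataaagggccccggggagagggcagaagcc
Lcn2: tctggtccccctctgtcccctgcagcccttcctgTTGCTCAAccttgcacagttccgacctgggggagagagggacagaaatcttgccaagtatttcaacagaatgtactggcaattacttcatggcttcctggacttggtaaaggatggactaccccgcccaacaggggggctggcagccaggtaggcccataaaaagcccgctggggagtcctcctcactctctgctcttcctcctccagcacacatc

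The Ngp stretch held 2 matches, TTGCCCAA beginning 138 bases before the start and TTGGGCAA beginning 11 bases before it. Ltf held 1, TTGGGCAA at 75 bases, and Lcn2 held 1, TTGCTCAA at 216 bases. The letters did not occur in the Camp window, nor in that of Siglecf (chr7:43351091-43351340, plus strand). Of the 17 secondary and tertiary granule genes listed, 15 had a RefSeq promoter entry and 6 of these (40%) held a match, while 10.8% of the 27025 genes with an entry did. A match is a description of the sequence, and binding was not measured.

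Neutrophils of tumor 1 were compared with those of tumor 2 by their summed UMIs, without a test because each tumor gave 1 library. Genes with at least 50 UMIs over both were called different at 2-fold or more, a rule set after the group sizes were seen. Of 3516 genes, 301 (8.56%) were higher in tumor 1 and 876 (24.9%) lower, and the median gene was lower by 0.36 on the log2 scale. Most of the secondary granule genes measured were higher in tumor 1, and more cytokine, receptor and survival genes were lower there than higher.

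Secondary granule genes led the tumor 1 side. Ngp stood at 285 UMIs per 10000 in tumor 1 and 8.64 in tumor 2, a ratio of 33.0 (95% interval 30.9 to 35.2). Camp stood at 190 and 5.42 (ratio 35.1, 32.3 to 38.1). Ltf, which encodes the iron-binding lactoferrin, stood at 32.8 and 1.22 (ratio 26.9, 22.5 to 32.2). Lcn2, which encodes the siderophore-binding lipocalin 2, stood at 57.3 and 12.9 (ratio 4.46, 4.17 to 4.76), and Chil3, a chitinase-like lectin, at 92.4 and 8.76 (ratio 10.5, 9.82 to 11.3). Of the 14 secondary and tertiary granule genes with enough UMIs, 10 were at least 2-fold higher in tumor 1 and 0 lower, with a median log2 difference of 2.23. Cd177, a surface protein of secondary granules, lay close in both (1.88 and 1.81), and Mmp9, the gelatinase of tertiary granules, stood at 2.51 in tumor 1 and 4.38 in tumor 2. The granule differences were still there at matched depth: against tumor 2 cells of at least 4972 UMIs the ratios were 22.8 for Ngp, 21.9 for Camp and 17.5 for Ltf. Matched depth, here and below, uses 50 of the 380 tumor 2 members, which may differ from the rest in more than depth. Tumor 2 members with 100 to 200 S100a8 and S100a9 UMIs per 10000 were the deepest, with a median of 3601 UMIs. Of these 59 cells, 18 had 20 or more C1q UMIs per 10000, against 43 of all 380. How far this moved the matched ratios was not tested.

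Genes of the earliest precursors were also higher in tumor 1, and 3 of them had no UMI in the neutrophils of tumor 2. Elane, the neutrophil elastase, had 283 UMIs (7.17 per 10000) in tumor 1 and 0 in tumor 2, at least 273-fold higher against a floor of 3 UMIs over the group. The protease gene Ctsg had 89 and 0 UMIs (at least 85.7-fold higher) and Ms4a3, a marker of granulocyte and monocyte progenitors, 77 and 0 (at least 74.2-fold higher). Mpo, the myeloperoxidase, had 57 UMIs in tumor 1 and 1 in tumor 2. A few cells carried these transcripts: Elane was seen in 7 of 50 cells and a single cell held 31.4% of its UMIs, and a single cell held 68.5% of those of Ctsg. All 7 genes of the precursor list that had enough UMIs were at least 2-fold higher in tumor 1, most of them having reached the minimum through that tumor. With all members the least different were Prtn3 (5.70 and 1.67 per 10000, ratio 3.42) and Cebpe (2.20 and 0.983, ratio 2.24), which encodes a C/EBP factor of late granulopoiesis. Their ratios were 8.11 and 9.40 at matched depth, and without the marker-bearing cells described below both were under 2-fold (log2 0.88 and 0.53). The division genes Mki67 or Top2a had a UMI in 13 of 50 neutrophils of tumor 1 and 15 of 380 of tumor 2.

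The 29 granule-rich cells of tumor 1 and its 21 other members also differed in genes that did not divide them. Ngp and Camp, by which they were divided, summed to 444 and 298 UMIs per 10000 in the 29 and to 4.13 and 0 in the 21. Ltf stood at 51.2 in the 29 and 0.350 in the 21, and Lcn2 at 85.6 and 7.49. The median of S100a8 and S100a9 together was 3058 per 10000 in the 29 and 131 in the 21, so most of the other members lay near the threshold of the rule. Elane and Mki67 were seen in 7 and 9 of the 29 cells and in none of the 21. The 21 carried more Il1b (18.6 against 2.42), the interleukin-1 beta gene, and more Cxcl2 (67.4 against 6.36), a chemokine that attracts neutrophils. Macrophage transcripts moved with this split: Apoe stood at 86.8 in the 21 and 12.8 in the 29, and C1qa at 16.2 and 0.953, and 8 of the 21 cells and 1 of the 29 had 20 or more C1q UMIs per 10000. Epithelial transcripts moved with it too: Krt8 stood at 8.82 in the 21 and 0.914 in the 29, and 6 of the 21 and 0 of the 29 had 20 or more Krt8 and Krt18 UMIs per 10000. The part of these macrophage and epithelial transcripts in the split was not tested.

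**Figure D2:**
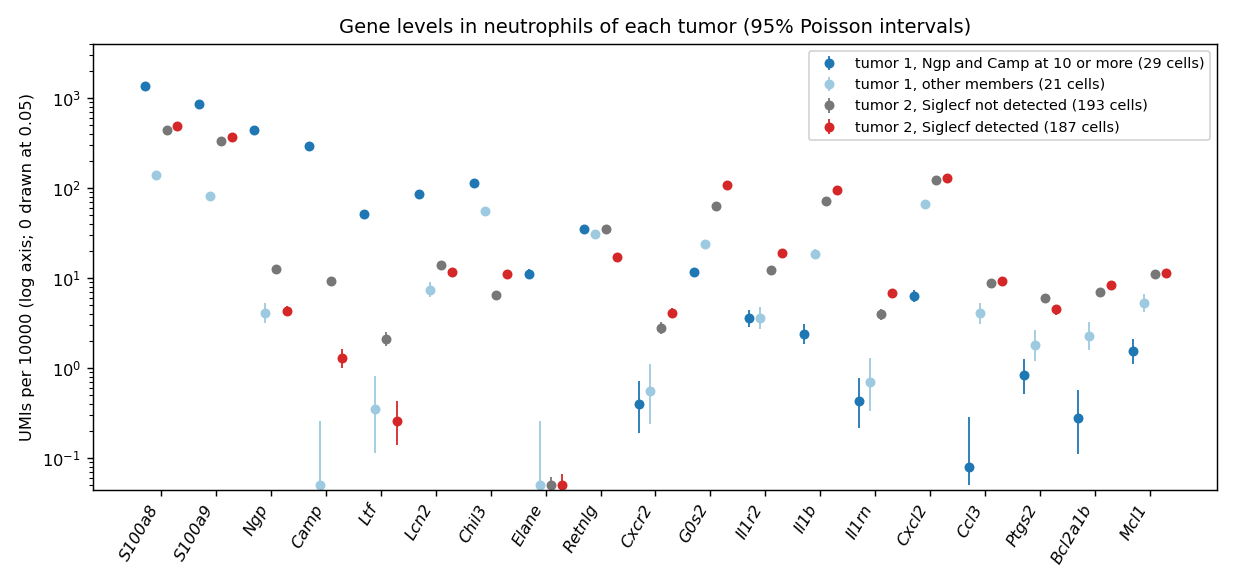
Levels of 19 genes (UMIs per 10000, log axis, 0 drawn at 0.05) in the 29 granule-rich and 21 other neutrophils of tumor 1 and in the 193 cells without and 187 cells with Siglecf of tumor 2. Points are summed levels and bars 95% counting intervals. Ngp, Camp and Ltf stand highest in the 29 cells, and Il1b, Il1rn and Ptgs2 stand higher in the tumor 2 groups than in both tumor 1 groups.

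The interleukin-1 ligands and several chemokines were lower in tumor 1. Il1b stood at 8.29 UMIs per 10000 in tumor 1 and 83.2 in tumor 2, 10.04-fold lower in tumor 1 (8.99 to 11.2). Il1a, the second interleukin-1 ligand, stood at 0.355 and 3.61, and Il1rn, the antagonist of their receptor, at 0.532 and 5.31. Cxcl2 stood at 28.4 and 125 (4.40-fold lower in tumor 1, 4.14 to 4.68), and the CC chemokines Ccl3 at 1.52 and 9.07 and Ccl4 at 1.22 and 7.31. Of 21 measured cytokine and chemokine genes, 12 were at least 2-fold lower in tumor 1 and 4 higher, with a median log2 difference of -1.11. The 4 higher genes were the EGF-family ligands Areg (1.75 and 0.167, ratio 10.5) and Hbegf (1.90 and 0.921, 2.06), Tgfb1 (2.66 and 0.842, 3.16) and Il6 (0.963 and 0.342, 2.82). A single tumor 1 cell held 68.1% of the Areg, 74.7% of the Hbegf, 40.0% of the Tgfb1 and 44.7% of the Il6 UMIs. At matched depth Il1b was 5.28-fold, Il1a 3.30-fold, Il1rn 5.23-fold, Cxcl2 2.62-fold and Ccl3 5.92-fold lower, and the ratios of Areg and Il6 were 3.73 and 1.37. Cxcl1 lay close in both tumors (0.659 and 0.675), as did Osm, which encodes the cytokine oncostatin M (3.75 and 3.33).

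Of the receptor genes outside the rule, Csf2rb, the shared receptor chain for GM-CSF, stood at 0.760 UMIs per 10000 in tumor 1 and 4.08 in tumor 2, and Ccrl2, a receptor that presents chemerin, at 1.04 and 11.3. Of 21 innate and growth factor receptor genes, 14 were at least 2-fold lower in tumor 1 and 1, Trem3, higher (2.38 and 0.833). Of 16 chemotaxis and adhesion receptor genes, 7 were lower, 0 higher and 9 under 2-fold, Cxcr4 among them (0.507 and 0.930). The levels of the genes that chose the members are a description only. Cxcr2, a receptor for Cxcl2, and Csf3r, the G-CSF receptor, stood at 0.456 and 0.355 UMIs per 10000 in tumor 1 and at 3.44 and 2.07 in tumor 2. G0s2, an inhibitor of lipolysis, stood at 16.1 and 85.7, and Il1r2, a decoy receptor for interleukin-1, at 3.60 and 15.5, while Retnlg stood at 33.8 and 26.8. At matched depth G0s2 was 1.81-fold and Il1r2 1.67-fold lower in tumor 1, both under 2-fold, and Ccrl2 was 4.46-fold lower against 10.9-fold in all members.

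Most of the survival genes measured were lower in tumor 1. Mcl1, a BCL2-family protein on which neutrophils depend, stood at 2.92 UMIs per 10000 in tumor 1 and 11.3 in tumor 2, and Bcl2a1b, of the same family, at 1.01 and 7.66. The Bcl2a1 genes are near-identical copies, so the division of UMIs among them is uncertain. Of 11 survival and cell death genes 8 were at least 2-fold lower and 0 higher. Ptgs2, the inducible cyclooxygenase, stood at 1.19 and 5.26, and Arg2, an arginase, at 0.253 and 1.54, among 8 lower and 2 higher of 12 suppression and lipid mediator genes. Fewer genes reached 2-fold in the lists for NADPH oxidase (1 lower of 6), lysosome and lipid storage (3 higher and 1 lower of 15) and glycolysis and hypoxia (3 higher and 1 lower of 18). Interferon response genes (1 higher and 4 lower of 10) and immediate early genes (1 higher and 6 lower of 19) had medians of -0.66 and -0.61 on the log2 scale, where the median of all genes was -0.36 and 24.9% of all genes were lower, a share near that of the immediate early genes.

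Transcripts of other cells also differed between the members of the tumors. The acinar gene Ctrb1, a pancreatic digestive enzyme, had 0 UMIs in the tumor 1 neutrophils and 1829 in those of tumor 2, and the fibroblast gene Col1a1 had 186 and 7. Spp1, or osteopontin, stood at 71.9 and 6.46 per 10000, with 60.2% of its tumor 1 UMIs in a single cell, and a single cell held 59.0% of the 156 Cxcl13 UMIs of tumor 1. Members under 20 UMIs per 10000 of 19 macrophage, monocyte and dendritic markers, a set chosen after seeing the data, numbered 23 of 50 and 237 of 380. In these the Ngp ratio was 39.2, and Il1b was 14.6-fold, Il1a 33.0-fold, Ccrl2 20.5-fold, Bcl2a1b 29.1-fold, Ptgs2 11.1-fold, Ccl3 9.38-fold, Mcl1 6.23-fold and Ccl4 2.55-fold lower in tumor 1. Hbegf was 2.36-fold lower there and Areg and Il6 had ratios of 25.8 and 10.3. This selection left out 27 of the 50 tumor 1 members, and the part of the marker transcripts in the differences was not tested.

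The next comparison followed Siglecf itself. In tumor 2 Siglecf had a UMI in 49.2% of neutrophils but in 2.77% of macrophages (30 of 1082, 1.88 to 3.93), 4.84% of monocytes (37 of 765, 3.43 to 6.61) and 4.25% of the other kept barcodes (51 of 1200). Neutrophils were the shallowest of these groups, with a median of 2287 UMIs against 3799.5, 3352 and 3332.5. With each cell thinned to 1500 UMIs, Siglecf was seen in 36.1% of the tumor 2 neutrophils. In tumor 1 the shares were 2.00% of neutrophils, 3.69% of macrophages (13 of 352) 7.81% of monocytes (5 of 64) and 0.682% of the other kept barcodes (10 of 1467). The single cell behind the neutrophil share of tumor 1 gave an interval that reached from 0.0506 to 10.6%, which holds the shares of all 3 other groups. Among tumor 2 neutrophils of at least 4972 UMIs, 21 of 50 had a Siglecf UMI (42.0%, 28.2 to 56.8).

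Siglecf was counted in few molecules per cell: 105 of the 380 tumor 2 neutrophils had 1 UMI, 53 had 2, 18 had 3 and 11 had 4, so many cells without a UMI may still express it. The share ran from 28.8% (17 of 59) in cells with 100 to 200 S100a8 and S100a9 UMIs per 10000 to 67.4% (58 of 86) in the fourth of 5 bins. It was 50.7% (37 of 73) in the top bin. The lowest bin was also the deepest, with a median of 3601 UMIs against 2025 to 2541 in the rest. Of the 11 granule-rich cells of tumor 2, 4 had a Siglecf UMI.

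**Figure D3:**
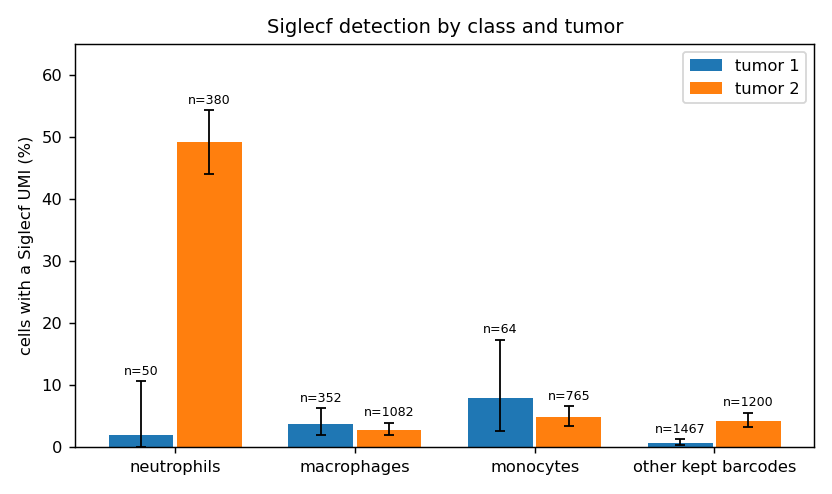
Percent of cells with at least 1 Siglecf UMI in neutrophils, macrophages, monocytes and the other kept barcodes of the all live libraries, with 95% Clopper-Pearson intervals and the number of cells above each bar. The neutrophils of tumor 2 reach 49.2% and all other bars lie below 8%.

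Cells with and without Siglecf were then set against each other within tumor 2, where 187 and 193 cells had a median of 2245 and 2330 UMIs. Both groups came from 1 library, so there is no replicate and no test, and tumor 1 with 1 such cell could not repeat the contrast. Of 2842 genes with at least 50 UMIs, 74 (2.6%) were at least 2-fold higher with Siglecf and 74 (2.6%) at least 2-fold lower, with a median log2 difference of 0.09.

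Cells with Siglecf carried fewer transcripts of the genes for Ly6G, the neutrophil collagenase and a protease inhibitor. Ly6g, the surface marker by which mouse neutrophils are usually stained, had 1 UMI in the cells with Siglecf and 52 in those without (ratio 0.0213, 95% interval up to 0.123). It was seen in 1 of 187 and 18 of 193 cells. Mmp8, which encodes that collagenase, had 5 and 88 UMIs (ratio 0.0622, 0.0196 to 0.151), in 5 and 27 cells. Both genes were partly carried by the 11 granule-rich cells of tumor 2, of which 4 had a Siglecf UMI. These held 30 Ly6g UMIs in 7 cells and 25 Mmp8 UMIs in 5 cells, and their part in the differences was not tested. Slpi, the protease inhibitor, stood at 1.87 and 5.71 UMIs per 10000 (ratio 0.328, 0.260 to 0.411). Retnlg, a rule gene, stood at 17.2 and 35.6, and was seen in 22.5% and 46.1% of cells.

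Of 14 secondary and tertiary granule genes 6 were at least 2-fold lower with Siglecf and 0 higher (median log2 difference -0.76). For some this came from few cells. Ngp stood at 4.35 per 10000 with Siglecf and 12.6 without, yet was seen in 15 cells of either group, and Camp, at 1.29 and 9.20, was seen in 6 and 7 cells. Ifitm6 stood at 0.974 and 7.05, while Lcn2 lay close (ratio 0.831) and Mmp9 stood at 5.47 and 3.37 (ratio 1.62, 1.35 to 1.95). Among cytokines, Osm (1.97 and 4.57), Cxcl3 (1.71 and 4.92), Cxcl1 (8 and 69 UMIs) and Ccl2 were lower with Siglecf. The interferon-induced gene Ifitm1 (8.73 and 22.6) and Wfdc17 (18.7 and 43.9) were lower too.

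Genes higher with Siglecf were mostly of low level. Adamdec1, a metalloprotease, stood at 0.900 UMIs per 10000 with Siglecf and 0.185 without (ratio 4.87, 2.50 to 10.4). Gpr171, a G protein-coupled receptor with 0 UMIs in the neutrophils of tumor 1, stood at 3.16 and 1.11 (ratio 2.85, 2.14 to 3.85). Ffar2, a receptor for short-chain fatty acids, stood at 2.11 and 0.789 (ratio 2.68, 1.89 to 3.84), Ceacam10 at 2.00 and 0.688, and Cd101, a surface glycoprotein of mature neutrophils, at 0.790 and 0.285 (ratio 2.77, 1.55 to 5.18). Usp24, Gm37800, Rogdi, Hacd2, Entpd3, Gpc3 and Gpd1l completed the 12 with the largest ratios, between 2.73 and 3.83 for these 7. Alox5 and Ltc4s, the enzymes that begin leukotriene synthesis and make leukotriene C4, had ratios of 2.15 and 2.21 (1.36 to 3.46 and 1.72 to 2.86). Il1a had 272 and 140 UMIs (ratio 2.13, 1.73 to 2.63). Of the precursor and primary granule list 2 genes had enough UMIs, Prtn3 and Cebpe. Both were at least 2-fold higher with Siglecf, with a median log2 difference of 1.10. Cebpe had 74 and 38 UMIs, in 39 of 187 and 27 of 193 cells.

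Several abundant genes leaned the same way under 2-fold. G0s2 stood at 109.5 with Siglecf and 63.9 without (ratio 1.71, 1.64 to 1.78), Ccrl2 had a ratio of 1.75 (1.56 to 1.96), Il1rn of 1.71 (1.45 to 2.02), the angiogenic factor Vegfa of 1.61 (1.25 to 2.08) and Cxcr2 of 1.46 (1.19 to 1.79). Il1b stood at 94.9 and 72.5 (ratio 1.31, 1.26 to 1.36). Cxcl2 (129 and 122), Ccl3 (9.39 and 8.78) and Mcl1 (11.5 and 11.1) had ratios between 1.03 and 1.07. For Cd274, which encodes the checkpoint ligand PD-L1, 33 and 27 UMIs gave a ratio of 1.34 with an interval from 0.780 to 2.31. No gene reached 2-fold in either direction among 20 innate and growth factor receptor genes, 6 NADPH oxidase, 15 lysosome, 16 glycolysis, 11 survival and 18 immediate early genes. Of all 2842 genes 2.6% were higher and 2.6% lower, and at these shares lists of this size could well hold none.

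**Figure D4:**
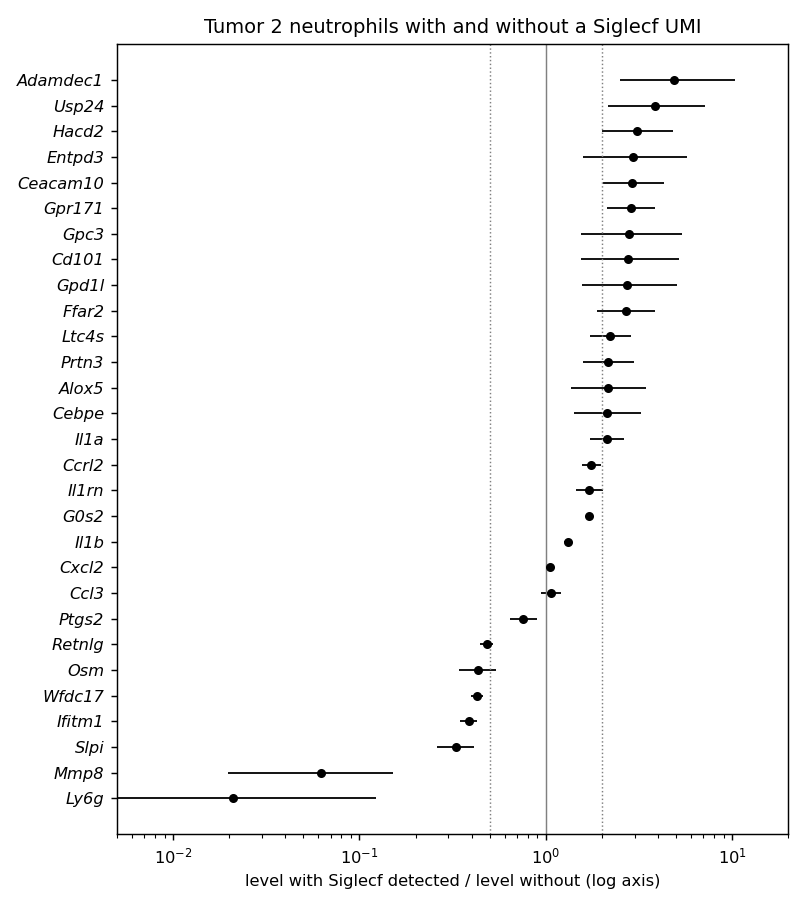
Level with Siglecf detected divided by the level without, in tumor 2 neutrophils, for 29 genes on a log axis, with 95% counting intervals (the lower end for Ly6g runs off the axis). Dotted lines mark 2-fold in each direction. Adamdec1 has the highest ratio, 4.87, and Ly6g the lowest, 0.0213.

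Markers of other myeloid cells moved with the Siglecf split. The 8 macrophage markers summed to 30.8 UMIs per 10000 with Siglecf and 54.6 without, the 5 monocyte markers to 8.58 and 18.5, and the 6 dendritic markers had 655 and 1177 UMIs. Their part in the differences was not tested. Siglecf was seen in 138 of the 237 tumor 2 members under the marker limit (58.2%) and in 49 of the 143 at or over it (34.3%). Among those 237 cells 28 genes were higher and 41 lower of 1545, and Ccl2, Ear2 and Retnla turned to higher with Siglecf. There Il1a (log2 0.72), Alox5 (0.57), Ltc4s (0.76), Rogdi (0.72) and Gpd1l (0.93) were under 2-fold, while Ly6g, Mmp8 and Slpi were still at least 2-fold lower. Osm (-0.76), Cxcl3 (-0.95) and Ifitm1 (-0.63) were under 2-fold among members of at least 2500 UMIs. Single cells held 97.5% of the Retnla and 63.7% of the Ear2 UMIs of the cells without Siglecf.

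To place the neutrophils among the myeloid cells of the same tumors, their summed UMIs were compared with those of macrophages (352 and 1082 barcodes, chosen by C1q genes) and of monocytes (64 and 765, low in C1q with Lyz2), with the tumor as a block in edgeR's quasi-likelihood test. A barcode chosen by neutrophil genes tends to carry the genes that go with them, so the counts describe how far the classes stand apart, and genes of the rules were left out. Against macrophages 188 genes (2.15%) were higher and 50 (0.571%) lower of 8757. Against monocytes 48 (0.755%) were higher and 3 (0.0472%) lower of 6357. With the tumor block left out 7 and 0 passed against macrophages and 1 and 0 against monocytes, where 469 and 336 genes and 238 and 133 genes had an unadjusted p under 0.05 in each direction. With 2 tumors per class and the tumor as a block, the main p-values rest on how the class difference varied between the tumors. That fit left 1 residual degree of freedom, and its variance estimates borrow from other genes.

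Summed over cells, granule genes set the neutrophils apart in each tumor. Lcn2 stood at 57.3 and 12.9 UMIs per 10000 in the neutrophils, 0.286 and 0.0884 in macrophages and 2.94 and 0.395 in monocytes, and did not overlap. Its log2 difference was 7.63 ± 0.33 (SE, n = 2 tumors) from macrophages and 4.88 ± 0.31 from monocytes (edgeR, adjusted p = 7.10e-05 and 0.00418). Ngp differed by 11.57 ± 0.29 and 10.51 ± 0.47, and Camp by 11.33 ± 0.30 and 10.86 ± 0.42. In tumor 2 these sums came mostly from few cells, as 11 of 380 members held 613 Camp and 836 Ngp UMIs. Camp was seen there in 6 of 187 cells with Siglecf and 7 of 193 without, and Ngp in 15 of each group. Cd177 stood at 1.88 and 1.81 in the neutrophils, 0.0381 and 0.0323 in macrophages and 0.138 and 0.162 in monocytes, so it differed about as much in each tumor (5.89 ± 0.40 and 3.76 ± 0.35, edgeR, adjusted p = 0.000701 and 0.0163). Of 15 secondary and tertiary granule genes 9 were higher than in macrophages and 1, the lysozyme gene Lyz2, lower (median log2 difference 4.02, against -0.01 over all genes). Of 14 tested against monocytes 6 were higher and 0 lower (14 genes of this list had an unadjusted p under 0.05 upward against macrophages and 11 against monocytes).

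Other neutrophil genes were higher in both tumors. Ly6g had no UMI in the macrophages or monocytes of either tumor and was at least 168-fold and 71.9-fold higher than in macrophages, and at least 27.9-fold and 45.1-fold higher than in monocytes. Itgb2l, an integrin subunit gene, was at least 93.1-fold and 20.4-fold higher than in macrophages. The stefin genes Stfa1, Stfa2 and Stfa3 and BC100530, protease inhibitors of a cluster of near-identical copies, were higher too, as was Gm5483 of that family, at 7.12 and 10.2 against 0.0690 and 0.0722 in monocytes (log2 difference 7.16 ± 0.38, edgeR, adjusted p = 0.00207). Cebpe was higher than in macrophages (5.11 ± 0.39) and monocytes (4.04 ± 0.34). The glucose transporter gene Slc2a3 was higher as well (4.61 ± 0.51 and 4.53 ± 0.51), with Egln3 and Slc2a1 among 3 of 23 glycolysis and hypoxia genes higher than in macrophages. Trem3 (3.47 ± 0.57), Tnfrsf23 and Il1rap, a receptor chain for interleukin-1, were the 3 of 20 innate and growth factor receptors, and Ltb4r1, the leukotriene B4 receptor, the 1 of 17 chemotaxis receptors.

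Cytokine genes did not separate neutrophils from the other classes alike in both tumors. Il1b stood at 8.29 UMIs per 10000 in neutrophils and 12.2 in macrophages of tumor 1, and at 83.2 and 17.8 in tumor 2, and monocytes had 20.2 and 27.9. Cxcl2 likewise stood at 28.4 against 36.4 in tumor 1 and 125 against 37.7 in tumor 2. Neither passed. Of 23 cytokine and chemokine genes 3 were lower than in macrophages and 0 higher: Ccl9 (-1.78 ± 0.27), Ccl2 (-1.74 ± 0.31) and Ccl6 (-1.20 ± 0.24), with 4 at an unadjusted p under 0.05 upward in edgeR and 2 called higher by DESeq2. Against monocytes 0 of 22 passed in edgeR, with 3 upward and 6 downward at an unadjusted p under 0.05, while DESeq2 called 1 higher and 2 lower.

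Genes of tissue macrophages were lower in neutrophils. Apoe, which encodes a lipid carrier, stood at 39.6 and 27.6 UMIs per 10000 against 212 and 114 in macrophages (log2 difference -2.03 ± 0.17, edgeR, adjusted p = 0.00166). The lysosomal proteases Ctsb (-1.59 ± 0.28), Ctsz (-1.44 ± 0.27) and Ctsd (-1.29 ± 0.25) and the glycoprotein gene Gpnmb (-3.19 ± 0.48) made up the 4 of 16 lysosome and lipid storage genes lower than in macrophages. Arg1, the arginase gene often linked to suppressive myeloid cells, stood at 2.76 and 6.98 in neutrophils and 28.1 and 20.5 in macrophages (-2.23 ± 0.40, edgeR, adjusted p = 0.0315). The scavenger receptor gene Marco had no UMI in neutrophils and was at least 6.87-fold and 11.3-fold lower, and Mmp12, the macrophage elastase, fell by 3.17 ± 0.48 on the log2 scale. The 3 genes lower than in monocytes were S100a4 (1.19 and 1.86 against 10.1 and 9.49, -2.48 ± 0.30), Vcan (-2.54 ± 0.34) and Ccl17 (-2.80 ± 0.38). Epcam and Krt19 were higher than in macrophages (5.34 ± 0.43 and 3.32). Epcam kept an adjusted p under 0.05 in all 6 alternatives that tested it (edgeR or DESeq2, highest 0.0266), and Krt19 in 4 of 7. The macrophage and monocyte rules capped Krt8 and Krt18 UMIs while the neutrophil rule did not, and the part of this was not tested.

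**Figure D5:**
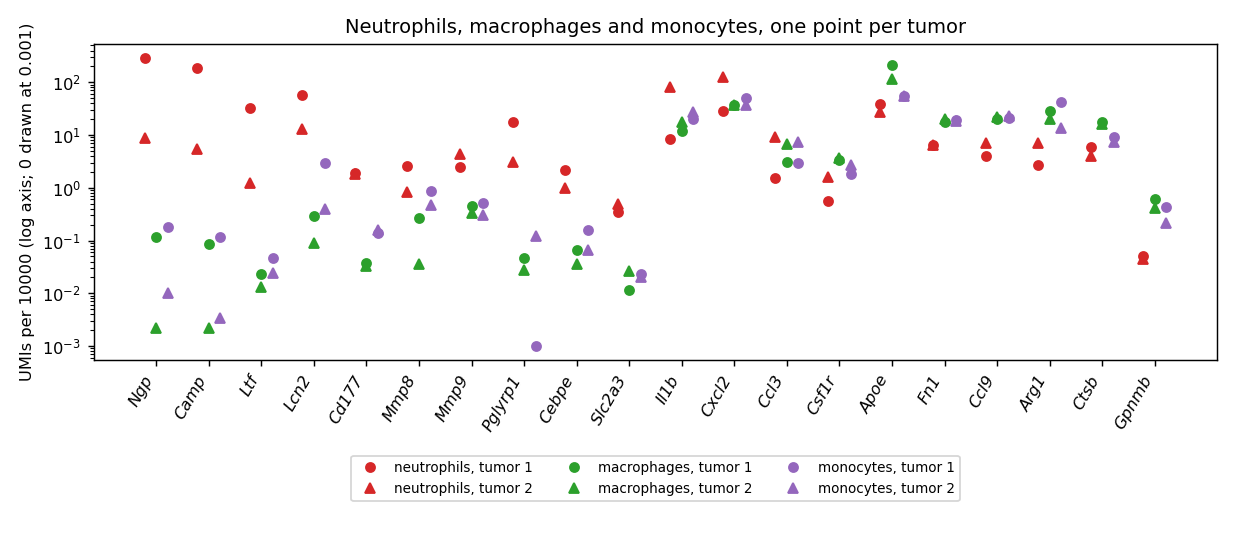
Levels of 20 genes (UMIs per 10000, log axis, 0 drawn at 0.001) in neutrophils, macrophages and monocytes, with 1 point per tumor. The granule genes from Ngp to Pglyrp1 stand higher in neutrophils than in both other classes in each tumor, while Il1b and Cxcl2 do so in tumor 2 alone.

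No gene passed among 14 survival and 20 immediate early genes against macrophages (edgeR, 1 and 3 with an unadjusted p under 0.05, and 0 and 0 by DESeq2). Of all 8757 genes 2.15% passed as higher and 0.571% as lower, and at these shares lists of this size could well hold none. The NADPH oxidase, which makes the oxidative burst, differed in 1 of 6 genes, Rac2, at 7.63 and 7.69 UMIs per 10000 in neutrophils against 3.57 and 1.84 in macrophages (1.79 ± 0.31). Of 14 interferon response genes Slfn4 and Ifitm1 were higher than in macrophages (3.51 ± 0.42 and 2.81 ± 0.29). With members of at least 200 S100a8 and S100a9 UMIs per 10000 only 16 genes passed as higher than in macrophages and 0 as lower, and of the 47 genes named 7 still passed. This setting also changed the other classes, because barcodes that left the members could enter them. Macrophages then numbered 359 and 1099 (352 and 1082 in the main fit) and monocytes 66 and 780 (64 and 765). The part of this move in the lower counts was not tested. Without the barcodes of highest doublet score 60 passed as higher and 2 as lower, and of the lower genes named above only Apoe was among them (edgeR, adjusted p between 4.06e-44 and 0.273 over the alternatives). The 3 genes lower than in monocytes did not pass at 200 UMIs. Cd177 and Gm5483 kept an adjusted p under 0.05 in all 7 tested alternatives against macrophages and monocytes respectively (edgeR or DESeq2, highest 0.0307 and 0.0320). Cd177 was not among the 47 genes.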

How the data were processed

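Per the labels' protocols, KPC tumors were digested at 37 C for 45 min, strained at 100 um and sorted, and 10x Chromium 3' libraries were prepared; Cell Ranger 2.0.0, CASAVA 1.4 and the build mm10 are named in the submitters' processing notes. The authors deposited raw UMI counts per gene and barcode for 4 libraries, and the sources used here do not say how barcodes were chosen. The members and gene lists were chosen with earlier results of these data known. Levels are UMIs summed over cells per 10000. Sums per tumor and class were tested with edgeR 4.0.16 (quasi-likelihood, TMM, filterByExpr, tumor as block since both classes come from the same animal, Benjamini-Hochberg, R 4.3.3), and DESeq2 1.42.0 was an alternative. Named genes were 2 to 4 per list plus the 12 largest in each direction that passed and went the same way in both tumors. Values of some other listed genes, Cd177 among them, are given outside that rule. Doublets were kept: scrublet's own limit marked 34 and 0 barcodes, and an alternative left out the 30 and 103 highest scores (1 and 13 members).

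The design text describes technical replicates, and each library here carries a single barcode suffix. Whether the 2 tumors are from separate mice rests on their label as biological replicates. An allele of the mice and a gene of the lists are not reported here. Shares carry 95% Clopper-Pearson intervals and ratios exact conditional intervals.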

Additional observations from a re-analysis of the deposited data

Results flagged for a closer look

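In the sorted CAF library of tumor 2, whose gate excludes CD45+ cells, 7 of 1222 kept barcodes (0.573%, 0.231 to 1.18) met the neutrophil rule. That of tumor 1 held 0 of 1402, which allows up to 0.214% by 3 counts and 0.263% by the exact interval, so the 2 exact intervals overlap and no difference between the libraries is claimed. The barcodes drew attention because these libraries enter none of the comparisons. S100a8 stood at 1193 UMIs per 10000 in them, G0s2 at 117.7, Cxcl2 at 114 and Il1b at 56.7, and 5 of the 7 had a Siglecf UMI.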

How the results depend on the processing

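Against macrophages, the numbers of genes higher and lower were 7 and 0 with no replicate block, 536 and 356 with no filter on low counts, 60 and 2 without the highest doublet scores, and 16 and 0 for members at 200 S100a8 and S100a9 UMIs per 10000 (528 and 494 at an unadjusted p under 0.05 in edgeR). Lower genes numbered 85 with RLE size factors and 166 without members at 20 or more myeloid marker UMIs per 10000. Against monocytes, higher and lower genes numbered 1 and 0 with no replicate block, 94 and 12 with RLE, 83 and 19 by DESeq2, 383 and 124 with no filter and 120 and 35 without the highest doublet scores. Lower genes numbered 0 at 200 UMIs (308 at an unadjusted p under 0.05 in edgeR) and 39 without marker-bearing members. Of the 47 genes named against macrophages, 34 passed in DESeq2, 47 with RLE, 47 with no filter, 40 without marker-bearing members and 19 without the highest doublet scores. At 200 UMIs, barcodes that left the members could enter the macrophages or monocytes. The causes were not tested. Leaving out either tumor leaves 1 sample per class and no test.

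The neutrophil share of tumor 1 was 1.71% at 200 UMIs and 1.86% after thinning. That of tumor 2 was 13.2% at 50 UMIs, 9.37% at 200, 8.67% with 3 rule genes and 13.3% at 5% mitochondrial UMIs. The Siglecf share was 36.1% thinned and 21.6% at 2 UMIs in tumor 2, and 0 at 2 UMIs in tumor 1. The Siglecf contrast gave 42 higher and 44 lower genes at 2500 UMIs, 39 higher when thinned, 49 higher at 200 UMIs, 144 lower at 2 Siglecf UMIs, and 28 and 41 without marker-bearing members. The last turned Ear2 (0.54), Ccl2 (0.54) and Retnla (1.86, log2). Between tumors, 153 genes were higher without marker-bearing members, where Thbs1 (0.19), Ccl2 (0.20), Retnla (0.78), Hspa1a (-0.97) and Hbegf (-1.24) turned, and 311 were lower at matched depth, where Alox5 turned (0.14). These contrasts had no test, so the block, DESeq2, RLE and leave-out settings were not run for them. Depth limits the Siglecf split, with 1 to 4 UMIs per positive cell.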
